A study of Mus musculus with 16 samples.

Results

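The members described here are 10 genes that encode alpha and beta tubulins: the alpha tubulin genes *Tuba1a*, *Tuba1b*, *Tuba1c*, *Tuba3a* and *Tuba3b*, and the beta tubulin genes *Tubb2a*, *Tubb2b*, *Tubb3*, *Tubb5* and *Tubb6*. They are 10 of the 30451 genes in the count table. They were listed by name, and *Tuba3a* and *Tuba3b* were put on the list because they led the germ cell cluster of these same cells, so their enrichment in germ cells is given as a description only. The table has 6 other alpha and beta tubulin genes, which are compared with the members at the end.

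Microtubules are polymers of a dimer of 1 alpha and 1 beta tubulin, and mammals carry several genes, called isotypes, for each subunit. The encoded proteins are nearly identical in their core and differ mostly in the acidic tail that lies on the outer face of the microtubule, where motors and modifying enzymes act. Every dividing cell builds a spindle from them. In the testis, Sertoli cells have dense bundles of microtubules along their length, and *Tuba3a* and *Tuba3b* are known as testis alpha tubulins.

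Testes of mice at postnatal day 2 (P2) were taken apart whole, and the cells were run through droplet-based single-cell RNA sequencing, which reads the 3′ end of each transcript and counts each molecule once through a unique molecular identifier (UMI). In 1 group the mice were wild type. In the other, *Ddx5*, an RNA helicase gene, was flanked by loxP sites and deleted with Cre driven by the *Mvh* promoter, which is active in germ cells, weakly at first and strongly late in fetal life. The mice carried an *Oct4*-GFP transgene, which marks germ cells. The labels list 8 samples of each genotype, but barcodes carry only 1 of 2 suffixes and no sample number, so each genotype is 1 library here, with no replicate, and no test was possible. The number of mice is not given in the sources used here.

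Which suffix is which genotype is not stated in the files, and the sequencing lanes in the labels do not settle it. The libraries were assigned by the numbers of cells stated by the study, which the knockout-labelled library matched exactly and the wild-type one nearly. The genotype of each library is thus an assignment made here, and every comparison between the libraries rests on it. *CRE* had 0 UMIs in the wild-type library and 20 in the other. *Ddx5* goes against the label: in germ cells it was 1152 counts per 1000000 UMIs (CPM) in wild type, while the library labelled *Ddx5* knockout had 1736, a ratio of 1.51 (interval 1.40 to 1.62), whereas in the 4 somatic types the ratio lay between 0.87 and 0.95. Whether the 3′ ends counted here lie in the deleted part of the gene is not given in the sources used here, so *Ddx5* may not check the label. Germ cells were 125 of 6329 kept cells in wild type and 12 of 4950 in the other, which is called the knockout-labelled library. In all, 6329 wild-type cells and 4950 knockout-labelled cells had 2000 genes or more and mitochondrial UMIs of 10% or less, and their median depth was 11170 and 11668.5 UMIs. Only 12 barcode sequences occurred in both libraries, and none of them was a germ cell.

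Cells were assigned by a gate on marker UMIs, the first gate passed deciding. Germ cells held at least 3 of *Dazl*, *Ddx4*, *Mael* and *Stk31*. Leydig cells, which make testosterone, held 20 UMIs or more of *Cyp11a1*, *Cyp17a1* and *Hsd3b1* together. Sertoli cells, the nurse cells of the tubule, held 3 or more of *Amh*, myoid cells, the contractile cells around the tubule, 5 or more of *Acta2* and 2 or more of *Myh11*, and stromal cells at least 1 of *Pdgfra*. This gave 125 wild-type and 12 knockout-labelled germ cells, 176 and 143 Leydig, 2210 and 1623 Sertoli, 723 and 501 myoid, and 2859 and 2496 stromal cells. The myoid group is the least clean, as 669 of 723 and 476 of 501 of its cells also passed another gate. Of the germ cells, 58 of 125 and 4 of 12 did so. Among the wild-type germ cells 55 of 125 held a UMI of *Amh*, against 1 of 12, and 284 and 296 of all kept cells were called doublets, droplets that hold more than 1 cell. Levels below are sums of UMIs over the cells of a type, as CPM of all UMIs of those cells. Intervals cover 95% and the error of counting alone, and say nothing of the spread between animals.

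The members fall into groups of close copies. On GRCm38, with the GENCODE vM21 annotation, the 3 *Tuba1* genes lie together on chromosome 15: *Tuba1b* at chr15:98931425-98934565 on the minus strand, *Tuba1a* at chr15:98949837-98953703 on the minus strand and *Tuba1c* at chr15:99029891-99038110 on the plus strand. Both *Tuba3* genes are on chromosome 6 but far apart, *Tuba3a* at chr6:125278274-125286042 on the minus strand and *Tuba3b* at chr6:145615757-145621479 on the plus strand. *Tubb2a* at chr13:34074274-34078007 and *Tubb2b* at chr13:34126748-34130466 are neighbours on the minus strand, while *Tubb3* at chr8:123411424-123422015 on the plus strand and *Tubb5* at chr17:35833921-35838306 on the minus strand stand alone. The coding sequences of *Tuba1a* and *Tuba1b* were identical at 98.3% of bases, those of *Tuba3a* and *Tuba3b* at 97.0% and those of *Tubb2a* and *Tubb2b* at 96.5%, whereas a *Tuba1* and a *Tuba3* gene shared 83.6% to 85.2%. *Tubb5* and *Tubb6* shared 80.7%.

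Such likeness bears on the counting, because reads that match several genes cannot be placed. Of the 100-base windows in the last 500 bases of the transcript, from which these reads come, 50.9% of those of *Tuba1a*, 57.4% of *Tuba1b*, 64.1% of *Tuba1c*, 19.95% of *Tuba3a*, 25.9% of *Tuba3b* and 21.2% of *Tubb2a* also occurred in another transcript. For *Tubb2b*, *Tubb3*, *Tubb5* and *Tubb6* the share was 0%. The split of UMIs among the 3 *Tuba1* genes is thus less certain than that among the beta tubulins.

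The stretches upstream of *Tuba3a* and *Tuba3b* are shown because these 2 genes had similar levels in each cell type. In the 250 bases before each start site in RefSeq (GRCm38.p6), the promoters were identical at 173 of 218 aligned bases (79.4%), and both held the letters TTCCCGCC followed by CCAAT at the same distance. These are given in capitals, 5′ to 3′ on each gene's own strand, for *Tuba3a* at chr6:125286172-125286201 on the minus strand and for *Tuba3b* at chr6:145615856-145615885 on the plus strand, and 27 of their 30 bases were the same:
*Tuba3a*: TTCCCGCCaaagccacatCCAATcagaaag
*Tuba3b*: TTCCCGCCaaatttacatCCAATcagaaag
The first lies 120 bases before the start of *Tuba3a*. The second lies 107 bases before the RefSeq start of *Tuba3b*, inside the gene as GENCODE vM21 annotates it.

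The whole 250 bases before *Tuba3a*, chr6:125286082-125286331 on the minus strand, hold TTCCCGCC once and CCAAT 3 times, in capitals, and are shown so that their spacing can be seen:
*Tuba3a*: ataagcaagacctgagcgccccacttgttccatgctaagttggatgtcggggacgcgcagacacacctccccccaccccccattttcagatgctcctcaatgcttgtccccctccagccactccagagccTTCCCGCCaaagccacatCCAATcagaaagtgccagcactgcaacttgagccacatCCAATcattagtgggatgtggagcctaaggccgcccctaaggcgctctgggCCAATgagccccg
RefSeq gave 27025 promoter windows of the 250 bases before a start, and these were read on both strands. Of them 34.5% held CCAAT, 1.88% held TTCCCGCC, and 0.215% held TTCCCGCC with 2 or more CCAAT. Of the other members with a window, none held TTCCCGCC, and CCAAT occurred 2 times in *Tubb5*, 1 time each in *Tuba1a*, *Tuba1c* and *Tubb3*, and 0 times in *Tuba1b* and *Tubb2a*. These are matches of letters, and no binding was measured.

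The isotypes differed in the cell type where they were highest. Germ cells held *Tuba3a* and *Tuba3b*, which were close to 0 elsewhere, Sertoli cells were highest in *Tuba1b*, *Tuba1c*, *Tubb3* and *Tubb5*, and stromal cells were highest in *Tuba1a*, *Tubb2a*, *Tubb2b* and *Tubb6*. No member was highest in Leydig or myoid cells, and Leydig cells had the lowest sum of the members in wild type. The sum over the 10 members in wild type and in the knockout-labelled library was 4643 and 4552 CPM in stromal, 4327 and 4594 in Sertoli, 3184 and 2951 in myoid and 1084 and 1150 in Leydig cells. In germ cells it was 2551 and 1006.

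**Figure D1:**
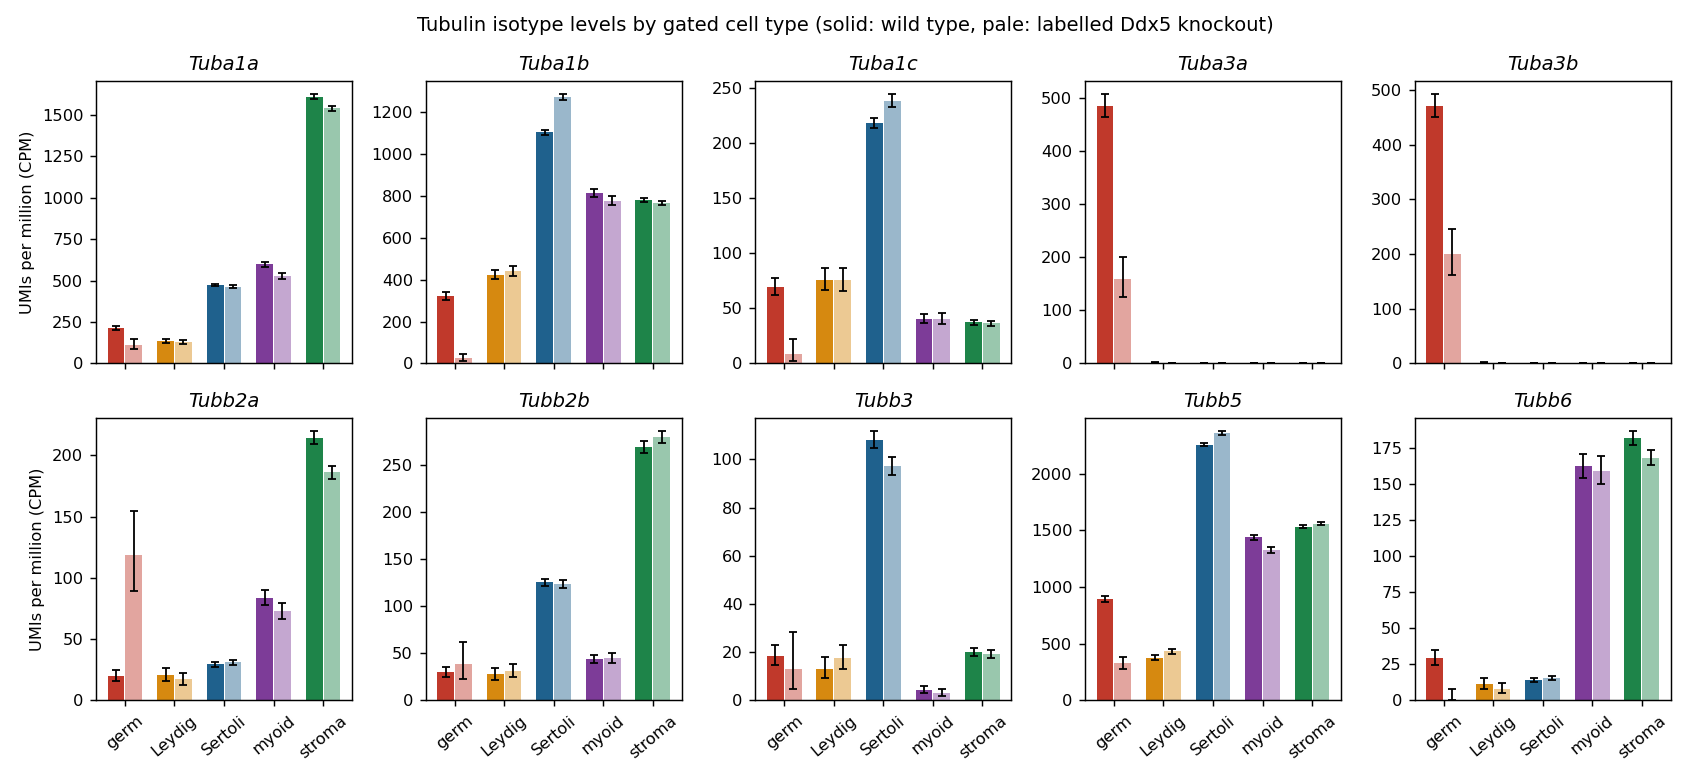
Level of each of the 10 members (y axis, CPM of the UMIs summed over cells) in germ, Leydig, Sertoli, myoid and stromal cells, with wild type in solid and the knockout-labelled library in pale bars. Error bars are 95% Poisson intervals of the summed counts. In germ cells the bars of a pair differ by 2-fold or more for 7 members, while for *Tuba1a*, *Tubb2b* and *Tubb3* they differ by less.

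*Tuba3a* was 485 CPM in wild-type germ cells (2097 UMIs) and 160 CPM in knockout-labelled germ cells (74 UMIs). It was 1.001 CPM or less in every somatic type: over the wild-type somatic cells it had 3 UMIs in Leydig, 29 in Sertoli, 3 in myoid and 12 in stromal cells, and in the knockout-labelled ones 2 UMIs, both in stromal cells. *Tuba3b* was 471 and 201 CPM in germ cells, with 1, 23, 8 and 15 UMIs in the wild-type somatic types and 0 in those of the other library. In wild type the germ cell level was 588 times (408 to 880) the Sertoli level for *Tuba3a* and 719 times (478 to 1137) for *Tuba3b*. In the knockout-labelled library, with Sertoli cells at 0, it was at least 1522-fold and at least 1913-fold higher.

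The somatic UMIs of both genes were set beside those of 8 germ cell genes outside the gate. Per UMI of these 8 there were 0.730 (0.701 to 0.760) UMIs of *Tuba3a* and *Tuba3b* in wild-type germ cells, but 0.104 (0.0766 to 0.139) in Sertoli, 0.138 (0.0660 to 0.259) in myoid, 0.133 (0.0855 to 0.199) in stromal and 0.0597 (0.0158 to 0.160) in Leydig cells. In the knockout-labelled library there were 0.427 (0.354 to 0.513) in germ cells, and in Sertoli cells 0 against 270 UMIs of the 8 genes. Of the 500 UMIs of the 8 genes in wild-type Sertoli cells, *Nanos3* had 192, *Dnd1* 150 and *Rnf17* 108. The same was done with 2 of the 8 alone, *Gtsf1* and *Mov10l1*, which act in piRNA defence. In wild-type germ cells there were then 2.19 (2.08 to 2.32) UMIs of *Tuba3a* and *Tuba3b* for each UMI of these 2, and in wild-type Sertoli cells 4.33 (2.28 to 8.92), from 52 UMIs against 12. In myoid cells the value was 3.67 (0.969 to 20.5) and in stromal cells 4.5 (1.82 to 13.3). The Sertoli interval overlapped that of germ cells at its lower end, and the myoid and stromal intervals held the germ cell value. The value thus depended on the germ cell genes chosen. The somatic UMIs were not read as expression, and the part of free RNA in them was not tested.

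*Tuba1a*, an alpha tubulin best known from developing neurons, was highest in stromal cells at 1609 CPM in wild type and 1542 in the knockout-labelled library. Myoid cells followed with 599 and 529, then Sertoli cells with 473 and 463, and Leydig cells had 137 and 129. The stromal level was 2.69 (2.61 to 2.76) and 2.92 (2.82 to 3.02) times the myoid level. *Tuba1b*, a widely expressed alpha tubulin, was highest in Sertoli cells at 1101 and 1269 CPM, ahead of myoid cells at 811 and 776 and stromal cells at 778 and 764. The myoid and stromal levels of *Tuba1b* differed beyond counting error in wild type but not in the knockout-labelled library.

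*Tuba1c*, the least abundant of the *Tuba1* genes here, was 219 and 239 CPM in Sertoli cells, 76.1 and 75.8 in Leydig, 40.8 and 40.8 in myoid and 37.4 and 36.4 in stromal cells. The Sertoli level was thus 2.87 (2.52 to 3.29) and 3.15 (2.75 to 3.62) times that of Leydig cells, the next somatic type. Myoid and stromal cells did not differ beyond counting error in either library, nor did Leydig and germ cells in wild type.

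*Tubb5*, the main beta tubulin of dividing cells, was the most abundant member in Sertoli cells, with 2256 CPM in wild type and 2356 in the knockout-labelled library. Stromal cells had 1533 and 1558, myoid cells 1438 and 1325 and Leydig cells 375 and 432. *Tubb3*, class III beta tubulin and a common marker of neurons, had 108 and 97.2 CPM in Sertoli cells against 19.9 and 19.3 in stromal cells, which makes 5.44 (4.98 to 5.94) and 5.04 (4.58 to 5.56) times. It was 4.40 and 3.08 CPM in myoid cells. In wild-type germ cells *Tubb3* was 18.3 CPM, which did not differ beyond counting error from stromal or Leydig cells.

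The neighbours *Tubb2a* and *Tubb2b*, both abundant in the nervous system, were highest in stromal cells but differed in the type that came next. *Tubb2b* was 269 and 279 CPM in stromal and 125 and 124 in Sertoli cells, a ratio of 2.15 (2.07 to 2.23) and 2.25 (2.17 to 2.35), and 43.8 and 45.1 in myoid cells. *Tubb2a* was 214 and 186 CPM in stromal, 83.8 and 72.5 in myoid and 29.3 and 30.9 in Sertoli cells. Among Sertoli cells, 44.6% and 55.9% of the *Tubb2a* UMIs lay in called doublets, and without these cells the level was 19.0 and 17.1 CPM.

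*Tubb6*, class V beta tubulin, was 182 and 168 CPM in stromal and 163 and 159 in myoid cells, and these 2 types differed beyond counting error in wild type (ratio 1.12, 1.06 to 1.19) but not in the knockout-labelled library (1.06, 0.987 to 1.13). It was 29.4 CPM in wild-type germ cells and 11.01 and 8.001 in Leydig cells. Its Sertoli level of 13.9 and 15.3 CPM rested on called doublets, which held 85.6% and 84.9% of its UMIs but 14.7% and 20.3% of all UMIs of these cells. Outside them *Tubb6* was 2.34 (1.82 to 2.95) and 2.90 (2.24 to 3.68) CPM.

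A member was counted as set apart where its level in a type was at least 2 times that in each of the other types in both libraries and it had 20 UMIs or more in each comparison. In Sertoli cells these were 2 of 10 members, *Tuba1c* and *Tubb3*, against 2.7% of all genes tested. In stromal cells they were *Tuba1a* and *Tubb2b*, against 1.56% of genes. In Leydig and myoid cells there were 0 of 10, against 2.79% and 0.871%. In germ cells there were 2, *Tuba3a* and *Tuba3b*, for which the members were chosen, so nothing is read from this count beside the 3.31% of all genes (13.5% in wild type alone).

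The mix of isotypes within a cell type gives the same picture as shares of the UMIs of its members. Of the alpha tubulin UMIs of wild-type germ cells, 61.3% came from *Tuba3a* and *Tuba3b*, and in the knockout-labelled library 70.8%. Without the cells that held a UMI of *Amh*, *Tuba3a* and *Tuba3b* were 571 and 552 CPM in wild-type germ cells, against 485 and 471 over all. *Tuba1a*, *Tuba1b* and *Tuba1c* were lower there, so the wild-type share depends on the cells kept. *Tuba1b* gave 61.4% and 64.4% in Sertoli, 66.4% and 68.3% in Leydig and 55.8% and 57.7% in myoid cells, whereas in stromal cells *Tuba1a* led with 66.3% and 65.8%. Among the beta tubulins *Tubb5* led everywhere. It gave 89.1% and 89.8% of beta UMIs in Sertoli cells but 69.1% and 70.5% in stromal cells, where *Tubb2a*, *Tubb2b* and *Tubb6* made up nearly all of the rest. In germ cells the share of *Tubb5* was 90.1% in wild type and 65.7% in the knockout-labelled library, with *Tubb2a* at 2.0% and 23.9%.

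**Figure D2:**
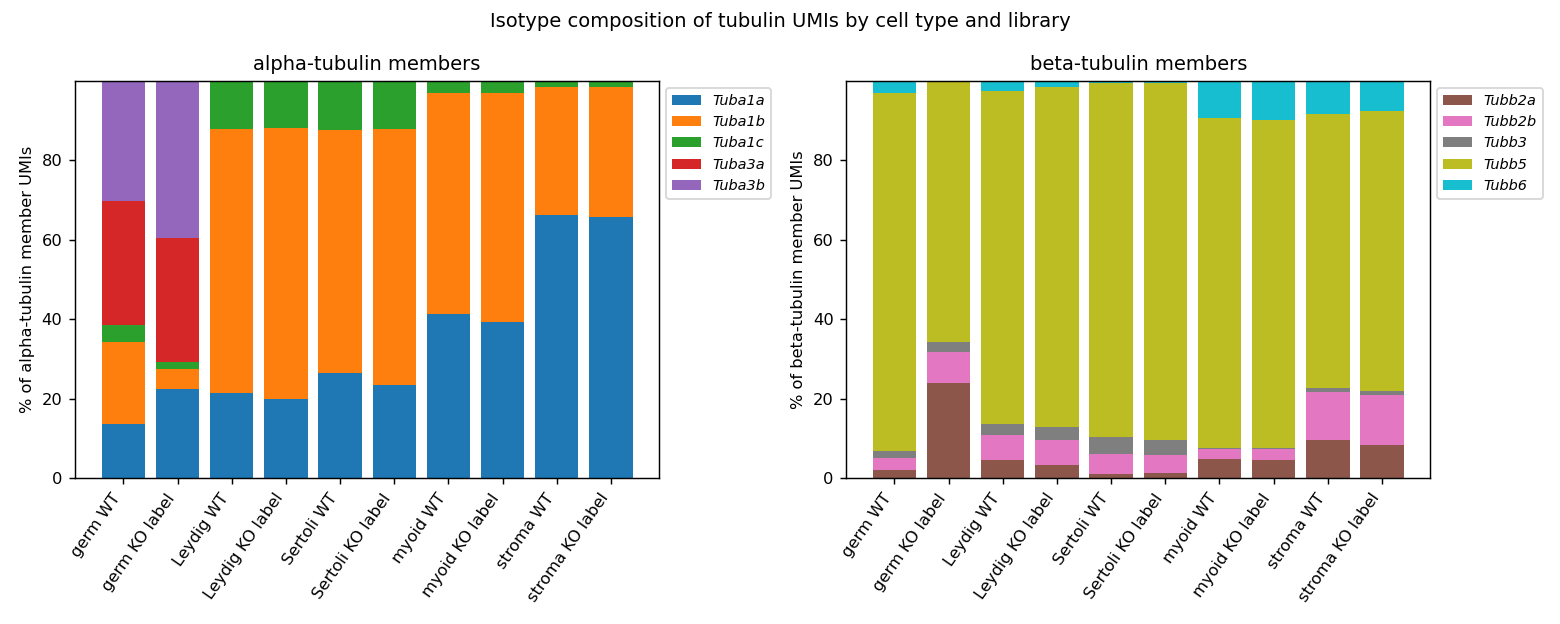
Share of each isotype (y axis, percent) in the UMIs of the 5 alpha and of the 5 beta tubulin members, by cell type and library. *Tuba3a* and *Tuba3b* take up most of the alpha bar in germ cells alone, *Tuba1a* leads in stromal cells at 66.3% and 65.8%, and *Tubb5* leads the beta bar in every type.

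The next question was whether the isotypes differ between cells in division and cells at rest. Cells were called cycling with 3 or more UMIs of *Mki67* and *Top2a* together, genes of dividing cells, and non-cycling with 0. The calls used UMIs not scaled by depth. In wild type, cycling and non-cycling Sertoli cells had a median depth of 18298 and 11733 UMIs. It was 13957 and 9016 in stromal and 39687 and 17233 in germ cells. The part of depth in the ratios was not tested. There were 861 and 720 cycling Sertoli cells against 974 and 656 non-cycling ones, 208 and 130 against 428 and 320 myoid cells, and 548 and 432 against 2017 and 1823 stromal cells. In these 3 types *Tuba1b*, *Tuba1c* and *Tubb5* were at least 2 times higher in cycling cells in both libraries, while *Tuba1a*, *Tubb2a* and *Tubb2b* were less than 2 times apart in at least 1 library.

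In stromal cells 4 of 8 members tested passed 2-fold upward in both libraries, against 5.77% of all genes, and 0 passed it downward, against 1.42%. *Tuba1c* was 116 CPM in cycling and 8.76 in non-cycling wild-type cells, a ratio of 13.3 (11.2 to 15.8), and 123 and 6.71 CPM in the knockout-labelled library, a ratio of 18.3 (15.1 to 22.5). *Tuba1b* was 1682 and 441 CPM in wild type, a ratio of 3.81 (3.71 to 3.92), and the ratio was 4.14 (4.02 to 4.27) in the other library. *Tubb6* was 365 and 114 CPM with a ratio of 3.19 (3.02 to 3.38), and 388 and 94.2 CPM with a ratio of 4.12 (3.87 to 4.39). For *Tubb5* the ratios were 2.97 and 3.11.

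The other stromal members were nearly level. *Tuba1a*, the leading alpha tubulin of these cells, was 1900 CPM in cycling and 1512 in non-cycling wild-type cells, a ratio of 1.26 (1.23 to 1.28), and 1.35 (1.33 to 1.38) in the knockout-labelled library. The ratio of *Tubb2b* was 0.917 (0.870 to 0.966) and 0.959 (0.907 to 1.01), that of *Tubb2a* 1.12 and 1.05, and that of *Tubb3* 1.11 and 1.10. As a result the mix differed by class: in wild-type stromal cells *Tuba1a* gave 77.0% of alpha UMIs without cycling and 51.4% with it, and *Tuba1b* 22.5% and 45.5%. *Tubb2b* gave 17.2% of beta UMIs in non-cycling and 6.6% in cycling cells.

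Myoid cells had the same 4 members past 2-fold, of 8 tested, against 4.97% of genes, and 0 were lower, against 0.899%. *Tuba1c* was 91.9 CPM in cycling and 8.61 in non-cycling wild-type cells, a ratio of 10.7 (7.63 to 15.3), and the ratio was 9.69 (6.85 to 14.1) in the knockout-labelled library. Among wild-type myoid cells of exactly 1 gate it was 5.05. For *Tuba1b* the ratios were 4.49 (4.24 to 4.75) and 4.69 (4.39 to 5.01), for *Tubb5* 3.59 and 3.70, and for *Tubb6* 2.97 and 3.44. The leading alpha tubulin of wild-type myoid cells differed by class, as *Tuba1a* gave 59.8% of alpha UMIs in non-cycling cells and *Tuba1b* 66.3% in cycling ones.

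In Sertoli cells 5 of 8 members passed 2-fold, against 3.53% of genes, and 0 were lower, against 0.306%. *Tuba1b* was 1484 CPM in cycling and 692 in non-cycling wild-type cells, and the ratios in the 2 libraries were 2.14 (2.09 to 2.20) and 2.33 (2.27 to 2.39). They were 2.53 and 2.84 for *Tuba1c*, 2.16 and 2.63 for *Tubb3* and 2.06 and 2.22 for *Tubb5*. *Tuba1a* lay at the line with 2.02 (1.95 to 2.10) and 1.94 (1.86 to 2.03), and without called doublets these were 2.21 and 2.26. The fifth member, *Tubb6*, had ratios of 2.56 and 2.39, but without called doublets these were 1.35 (0.747 to 2.502) and 0.872 (0.487 to 1.58). Its direction therefore turned in the knockout-labelled library. With cells called cycling from 1 UMI up, *Tuba1b* (1.91), *Tubb3* (1.89) and *Tubb5* (1.84) were below 2-fold in wild type.

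**Figure D3:**
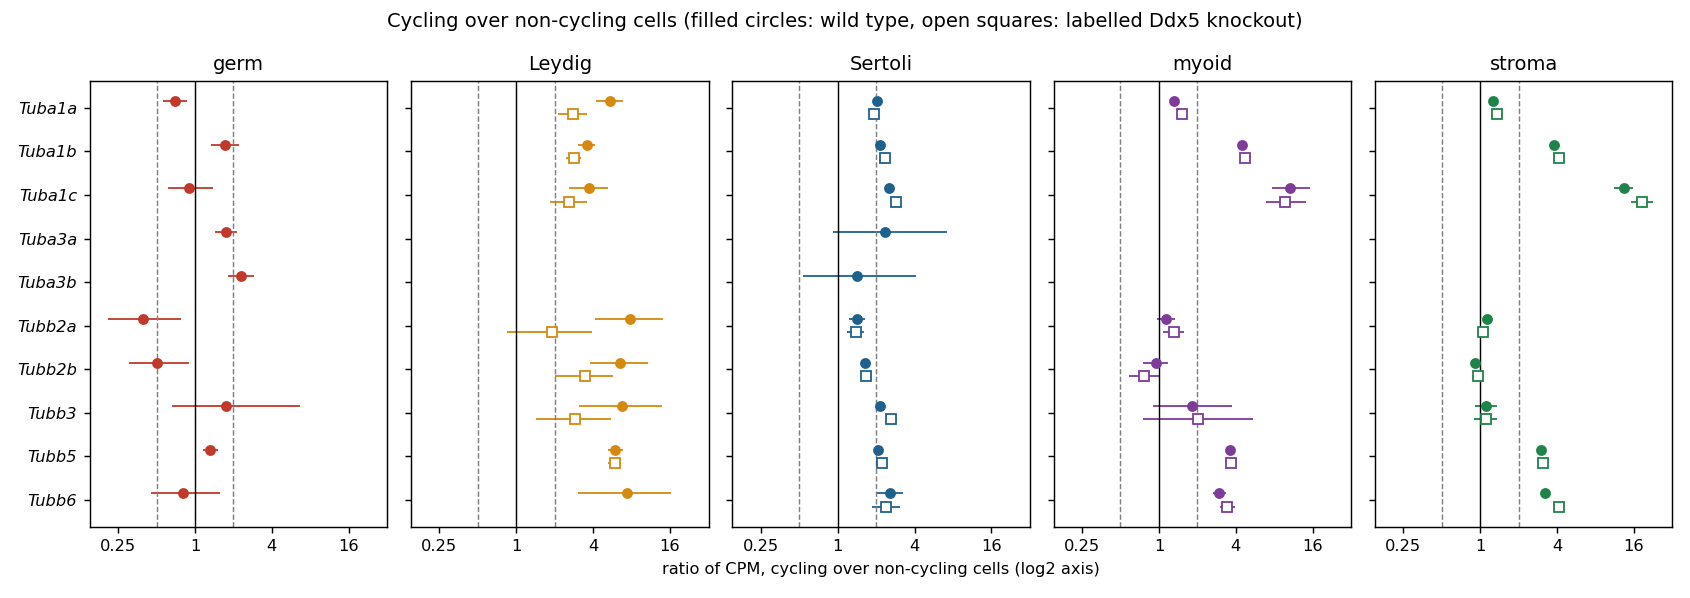
Ratio of the level in cycling over non-cycling cells (x axis, log2 scale) for each member and cell type, with filled circles for wild type and open squares for the knockout-labelled library, and germ cells from wild type alone. Bars are 95% counting intervals and dashed lines mark 2-fold. *Tuba1c* lies farthest to the right in myoid and stromal cells, and *Tubb2a* lies on the left in germ cells.

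Among stromal cells, those with the most *Mki67* and *Top2a* had the highest levels of *Tuba1b*, *Tuba1c* and *Tubb6*. From the lowest to the highest of 5 bins, 0 and 30 or more UMIs, *Tuba1b* went from 441 to 2082 CPM in wild-type and from 424 to 2080 CPM in knockout-labelled stromal cells. *Tuba1c* went from 8.76 to 198 and from 6.71 to 194 CPM, and *Tubb6* from 114 to 426 and from 94.2 to 458 CPM. In Sertoli cells *Tuba1b* went from 692 to 1705 and from 729 to 1912 CPM. *Tuba1a* covered a smaller range in wild-type stromal cells, from 1512 to 2008 CPM.

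**Figure D4:**
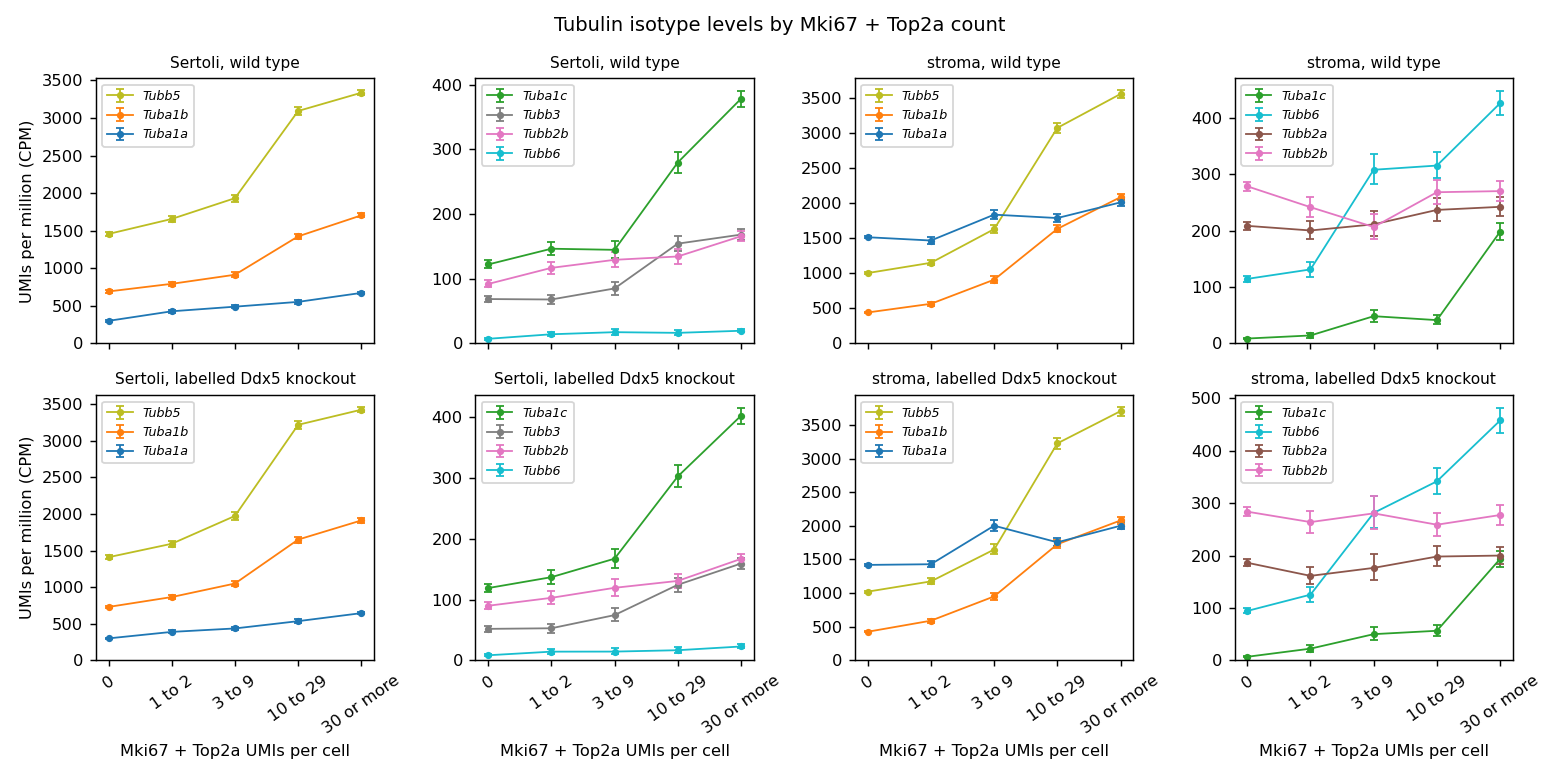
Level of 7 members per cell type (y axis, CPM, linear and from 0) in Sertoli and stromal cells grouped by their *Mki67* and *Top2a* UMIs (x axis), with wild type in the upper and the knockout-labelled library in the lower panels, 1 line per member and 95% Poisson intervals as bars. In wild-type stromal cells *Tuba1c* goes from 8.76 to 198 CPM from the first to the last bin, and *Tuba1a* from 1512 to 2008.

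Few Leydig cells were cycling, 5 in wild type and 10 in the knockout-labelled library, and 4 and 7 of these were called doublets. Of 7 members tested 6 were past 2-fold in both libraries, against 5.91% of genes: *Tuba1a*, *Tuba1b*, *Tuba1c*, *Tubb2b*, *Tubb3* and *Tubb5*. None was past it downward, against 3.11%. *Tubb5* had ratios of 5.97 (5.20 to 6.85) and 5.88 (5.21 to 6.63). Without called doublets fewer than 5 cycling cells were left in each library, so that no ratio could be given.

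In wild-type germ cells, 80 of which were cycling and 18 non-cycling, the order of the members was different. *Tuba3b* was 542 CPM in cycling and 237 in non-cycling cells, a ratio of 2.28 (1.83 to 2.89), and was the only member past 2-fold upward, against 10.4% of genes. *Tuba3a* had 551 and 317 CPM with a ratio of 1.74 (1.43 to 2.13), and *Tuba1b* had 1.71 (1.34 to 2.21). *Tubb2a* was 14.8 CPM in cycling and 38.1 in non-cycling cells, a ratio of 0.389 (0.208 to 0.782), from 49 and 13 UMIs. It was the only member past 2-fold downward, against 7.61% of genes. Among the 18 non-cycling cells, 1 of 13284 and 1 of 14465 UMIs had the highest *Tubb2a*, at 151 and 277 CPM. The same cells had *Tuba1a* at 1204 and 1106 CPM and *Tubb2b* at 301 and 553 CPM. Their part in the ratios was not tested. *Tuba1a* was lower in cycling germ cells too, with a ratio of 0.697 (0.564 to 0.869). Among the 51 wild-type germ cells with more than 2 UMIs of *GFP* the ratio was 1.08 (0.751 to 1.61). Among germ cells without a UMI of *Amh* it was 0.493, past 2-fold downward. *Tubb2b* had 0.505, and 0.124 among germ cells without a UMI of *Amh*. The germ cell calls were less stable than the somatic ones: with mitochondrial UMIs of 5% or less the ratio of *Tuba3b* was 1.14 and that of *Tuba3a* 0.969. The knockout-labelled library had 6 cycling and 2 non-cycling germ cells, too few for a ratio.

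The remaining comparison is that between the libraries. In somatic cells, in which the *Mvh* promoter is not active, most members differed little. Of the members with 20 UMIs or more, 0 of 8 were 2-fold apart in Leydig cells, where 2.99% of all genes were (1.46% higher and 1.53% lower in the knockout-labelled library). In myoid cells there were 0 of 8, against 2.19% (0.859% and 1.33%), and in stromal cells 0 of 8, against 2.65% (1.64% and 1.01%). In Sertoli cells there were 2 of 10, against 2.79% of genes (1.52% and 1.27%), and both were germ cell isotypes at a trace level, *Tuba3a* with 29 UMIs against 0 (at least 7.87-fold lower) and *Tuba3b* with 23 against 0 (at least 6.24-fold lower). In the 54 and 25 myoid cells that passed only 1 gate the ratios were lower, 0.537 (0.415 to 0.687) for *Tuba1a*, 0.569 (0.486 to 0.665) for *Tubb5* and 0.542 (0.342 to 0.831) for *Tubb6*, against 0.883, 0.922 and 0.981 over all myoid cells. *Tubb2b* was 0.624 there against 1.03, and *Tuba1c* 0.187 against 1.00051, the first from 18 and 5 UMIs (interval 0.181 to 1.74) and the second from fewer than 20 UMIs in all, so neither is read as a difference. *Tubb5* in Sertoli cells was 2256 and 2356 CPM, and *Tuba1a* in stromal cells was 1609 and 1542 CPM.

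In germ cells 6 of 10 members were at least 2 times lower in the knockout-labelled library, against 42.6% of all genes, and 1 was at least 2 times higher, against 9.66% (52.3% either way). *Tuba1b* had a ratio of 0.0807 (0.0416 to 0.141), from 321 CPM in wild type to 25.9, and *Tuba1c* had 0.124 (0.0337 to 0.322), from 69.4 to 8.63. *Tuba3a* had 0.329 (0.258 to 0.415), *Tuba3b* 0.426 (0.342 to 0.525) and *Tubb5* 0.365 (0.308 to 0.429). *Tubb6* had 127 UMIs in wild type against 0, at least 4.54-fold lower. *Tubb2a* was the exception, with 19.9 CPM in wild type and 119 in the knockout-labelled library, a ratio of 5.97 (4.17 to 8.47). *Tuba1a* (0.538), *Tubb2b* (1.29) and *Tubb3* (0.709) were within 2-fold. Other choices of cells moved the first 2 past it: *Tuba1a* was 0.387 (0.285 to 0.515) with mitochondrial UMIs of 5% or less and 0.478 (0.288 to 0.752) among cells of only 1 gate, where *Tubb2b* was 2.90 (1.25 to 6.21). Of the 53 *Tuba1a* UMIs in knockout-labelled germ cells, 27 lay in 1 cell.

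These ratios have to be read against a background in which most genes were lower: the median ratio of all 12394 genes tested was 0.648, and 0.792 when ribosomal protein and mitochondrial genes were left out of the CPM. The median over the 10 members, with *Tubb6* at the floor of 3 UMIs, was 0.396. In this comparison 12 cells stand against 125, and markers of Sertoli cells summed to 1165 CPM in the wild-type germ cells and 69.1 CPM in the others. Markers of stromal cells summed to 311 and 468 CPM, those of macrophages to 59.0 and 6.48 CPM, and those of neurons to 28.7 and 58.3 CPM. Their part in the ratios was not tested beyond the cells with *Amh*. Mitochondrial UMIs of 5% or less were found in 52 of the 125 and in all 12, and among these the ratio of *Tuba3b* was 0.575 (0.456 to 0.719), within 2-fold, and that of *Tubb2a* 3.71 (2.47 to 5.60). With ribosomal protein and mitochondrial genes left out of the CPM, *Tuba3b* was also within 2-fold, at 0.525 (0.422 to 0.646).

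Without the cells that held a UMI of *Amh*, 70 wild-type and 11 knockout-labelled germ cells were left, in which the Sertoli markers were 60.8 and 69.8 CPM. *Tubb2a* was then 24.5 and 101 CPM, *Tuba1b* 202 and 28.4, *Tubb5* 696 and 321, *Tuba3a* 571 and 173 and *Tuba3b* 552 and 207. These 5 remained at least 2 times apart in the same direction, and *Tubb2b*, with 18.6 and 41.4 CPM (41 and 16 UMIs), was then past 2-fold higher, at 2.22 (1.17 to 4.05). A stricter choice of germ cells kept those with more than 2 UMIs of *GFP* in wild type, 51 of the 92 with any, and those with more than 1 UMI of *CRE* in the knockout-labelled library, 4 of the 9 with any. With so few cells in the second group, *Tuba3a* was 444 and 299 CPM (ratio 0.675, 0.483 to 0.920) and *Tuba3b* 419 and 299 CPM (0.715, 0.511 to 0.975), so both were within 2-fold, while *Tubb2a* was 20.1 and 114 CPM. *Tuba1a* was past 2-fold lower, at 0.344 (0.170 to 0.622). *Tubb6* had 61 UMIs against 0 there, at least 1.47-fold lower. When each cell was thinned to 5000 UMIs, *Tubb2a* had 17 UMIs in 123 cells and 3 UMIs in 12, a ratio of 1.81 (0.340 to 6.25). *Tuba1c*, with 42 and 3 UMIs, then had 0.732 (0.145 to 2.29) and *Tubb5* 0.531 (0.347 to 0.782), and *Tubb6*, with 21 and 0 UMIs, was below the floor, so no fold is given.

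The single germ cells show how the sums came about. *Tuba3a* was found in 121 of 125 wild-type and 11 of 12 knockout-labelled cells, with a median of 423 and 81.6 CPM per cell, and *Tuba3b* in 118 and 11 cells with a median of 343 and 172 CPM. *Tuba1b* was found in 121 of 125 and 7 of 12 cells, with a median of 227 and 15.9 CPM. *Tuba1a* was found in 122 and 9 cells, with a median of 180 and 39.4 CPM. *Tubb2a* was found in 57 of 125 wild-type cells (45.6%) and in 11 of 12 of the others (91.7%), with a median of 0 and 91.9 CPM, at a median depth of 34394 and 34528 UMIs. Its highest value was 277 CPM in wild type and 395 CPM in the knockout-labelled library, so the groups overlapped. *Tubb5* was found in every germ cell, from 60.2 to 2333 CPM in wild type and from 78.6 to 534 CPM in the others, and these ranges overlapped too.

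**Figure D5:**
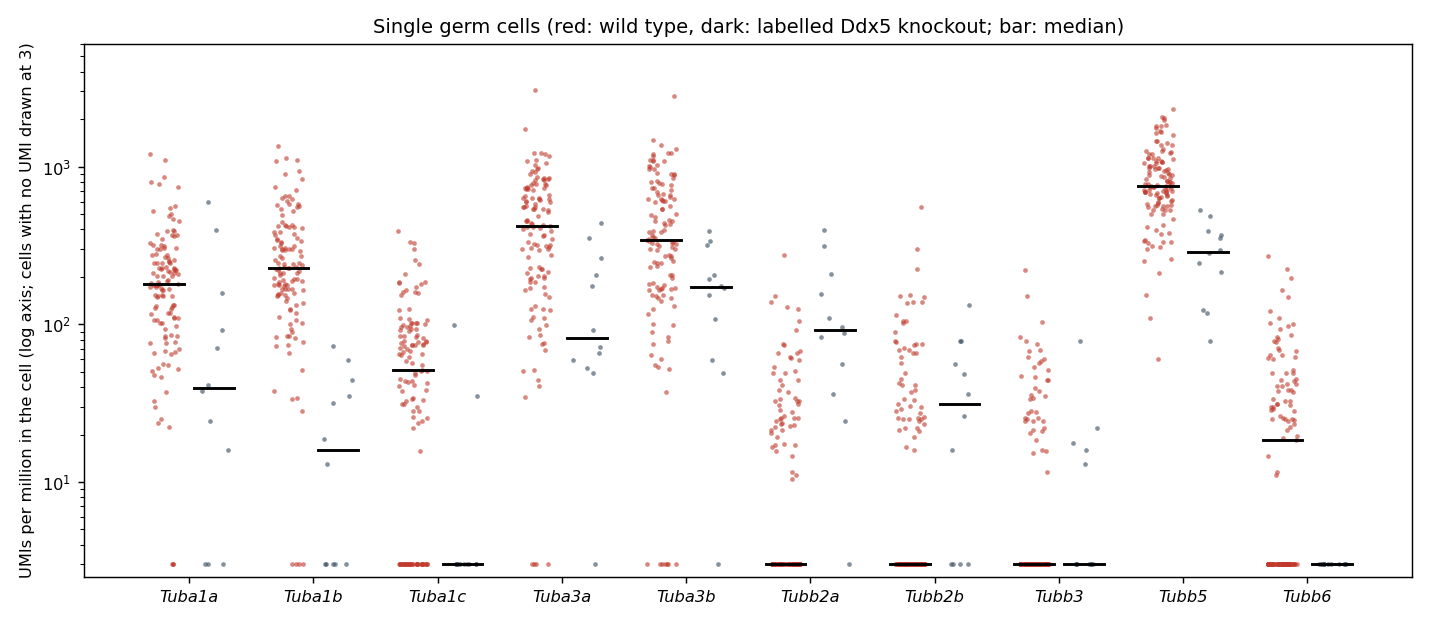
Level of each member in single germ cells (y axis, CPM of the cell's UMIs, log scale), with 125 wild-type and 12 knockout-labelled cells. Each point is a cell, cells without a UMI are drawn at 3, and the bar is the median; *Tubb2a* has a UMI in 57 of 125 and 11 of 12 cells, and *Tubb6* in 66 and 0.

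Across the single wild-type germ cells the levels of *Tuba3a* and *Tuba3b* moved together, with Pearson's r of 0.820 over 125 cells, and 0.890 over the 12 others. Cells of a library share their preparation, and these values are descriptions only. Over 28 groups of cells, made by type, cycling class and library, the r of log2(CPM + 10) was 0.992 for this pair, 0.842 for *Tuba1a* and *Tubb2a*, 0.833 for *Tuba1a* and *Tubb2b* and 0.803 for *Tuba1b* and *Tubb5*. The groups share libraries and neighbouring cells.

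By the same measure, among 10939 genes, those nearest to *Tuba3a* were *Dazl* (0.994), which is itself a marker in the germ gate, *Slc9b1* (0.992) and *Gpat2* (0.992). Nearest to *Tubb3* were *Capn6* (0.932), *Fbln2* (0.929) and *Adamts16* (0.923). Nearest to *Tuba1b* were *Nucks1* (0.976), *Ctcf* (0.952) and the linker histone gene *H1f4* (0.952). Nearest to *Tubb6* were *Nsg1* (0.970), *Emp1* (0.955) and *Ror2* (0.946).

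Of the 6 other alpha and beta tubulins, *Tubb4b*, a beta tubulin common in cilia, came closest to the cycling members. It was past 2-fold upward in cycling cells of all 4 somatic types in both libraries, 1 of the 1 or 2 of these 6 genes tested in each type, against 3.53% to 5.91% of all genes, with 743 and 90.6 CPM in wild-type Sertoli cells, a ratio of 8.20, and 7.84 in the knockout-labelled library. In myoid cells its ratios were 6.92 and 8.88, and in stromal cells 5.54 and 6.47. Its germ cell level was 894 CPM in wild type against 363. *Tuba4a* was 24.5 and 10.8 CPM there, and both genes, 2 of 3 tested, were past 2-fold higher in wild-type germ cells than in each somatic type, against 13.5% of all genes. In both libraries 0 of 3 were, against 3.31%.

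Of 14 genes that fold tubulin, those of the CCT chaperonin and the tubulin cofactors, 0 were past 2-fold between cycling and non-cycling cells in both libraries in any of the 4 somatic types, where 3.53% to 5.91% of all genes were higher, a share at which few or none of 14 would be. In germ cells *Cct8*, a chaperonin subunit, was past 2-fold higher than in each somatic type in both libraries, 1 of 14 against 3.31% of all genes, at 584 CPM in wild type and 1932 in the knockout-labelled library. Between the libraries 4 of these genes, *Cct4*, *Cct5*, *Cct7* and *Cct8*, were higher in the knockout-labelled germ cells and 6 were lower, against 9.66% and 42.6% of all genes. Of 22 genes for microtubule-binding proteins and stathmins, *Stmn1*, *Ckap5* and *Tpx2*, which act on spindle or free tubulin, were past 2-fold higher in cycling Sertoli (3 of 18 tested, against 3.53% of all genes), myoid (3 of 16, against 4.97%) and stromal cells (3 of 20, against 5.77%). In the few cycling Leydig cells *Stmn1*, *Tpx2*, *Map1b* and *Map2* were, 4 of 14 against 5.91%. Of the 22, *Map1b* and *Map7* were set apart in Sertoli cells, against 2.7% of all genes. There was 1 in each other somatic type: *Mapt* in Leydig (2.79%), *Map6* in myoid (0.871%) and *Dclk1* in stromal cells (1.56%). Nothing is read from these single calls. Of the gamma, delta and epsilon tubulins *Tubg1*, *Tubd1* and *Tube1* were past 2-fold higher in cycling myoid (3 of 3 tested, against 4.97% of all genes) and stromal cells (3 of 4, against 5.77%), and *Tube1* in cycling Sertoli cells (1 of 4, against 3.53%). Of 21 genes for enzymes that modify tubulin, *Ttll7* and *Agbl5* were set apart in germ cells in both libraries, 2 of 19 tested against 3.31% of all genes. *Hdac6* was past 2-fold higher in cycling Leydig (1 of 7 tested, against 5.91%), *Ttll4* in cycling myoid (1 of 13, against 4.97%) and *Ttll5* in cycling stromal cells (1 of 15, against 5.77%), and 1 call is near what those shares give.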

How the data were processed

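The values are UMI counts per gene and barcode, deposited by the authors without normalization. The authors made them with Cell Ranger 3.1.0 on a reference extended by GFP and CRE, and later used Seurat 3.1.5. Per the labels the build is GRCm38, and the annotation release is not given in the sources used here. The table held 12186 barcodes and a depth of 84263163 (wild type) and 67558106 UMIs (knockout label). Members and gene lists were chosen with earlier results of these data known.

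Cells were filtered and gated as given in the report, which left 411 cells in no gate and 1356 that passed more than 1. UMIs were summed per type and library and scaled to CPM. Sums have Poisson, ratios conditional binomial and shares Clopper-Pearson bounds, all exact and at 95%, for counting error only. A ratio was counted from 2-fold up with 20 UMIs or more over both groups, and a group at 0 was set to 3 UMIs. Cycling classes of fewer than 5 cells were left out, but the 4 knockout-labelled germ cells past the limit on *CRE* were kept. Doublets were called with Scrublet in Scanpy 1.11.5 and kept. Named were all members, listed genes past 2-fold in both libraries, and the 3 genes most like *Tuba3a*, *Tubb3*, *Tuba1b* and *Tubb6*. *Gtsf1*, *Mov10l1*, *Nanos3*, *Dnd1* and *Rnf17* were named after their values were seen, from 8 germ cell genes outside the gate, and *Tuba4a*, *Tubb4b* and the *Cct* genes between libraries were named from their lists in germ cells alone. Python 3.11.15, NumPy 2.4.6, SciPy 1.17.1, pandas 2.3.3, Matplotlib 3.10.9 and Biopython 1.88 were used. The intervals were tested on simulated data. Alternatives changed the cell filter, gates, doublets, depth, scaling, pseudocount and thresholds 1 at a time, and the germ cells without *Amh* were added after the data were seen.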

Additional observations from a re-analysis of the deposited data

Results flagged for a closer look

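In wild-type germ cells *Tubb2a* had a cycling over non-cycling ratio of 0.389, below 1, while in all 4 somatic types it lay above 1 in both libraries. Among the non-cycling germ cells *Tubb2a* was highest in 1 cell of 13284 and 1 of 14465 UMIs. In knockout-labelled Leydig cells with mitochondrial UMIs of 5% or less the ratio was 0.735. In knockout-labelled stromal cells it was 0.980 with CPM outside ribosomal protein and mitochondrial genes. The difference was not tested. *Tuba1a* had 0.697 in wild-type germ cells and lay above 1 in Leydig, Sertoli and myoid cells of both libraries, which was not tested either. Its ratio was 1.08 among germ cells with more than 2 UMIs of *GFP* and 0.493 among those without a UMI of *Amh*. In wild-type myoid cells of exactly 1 gate it was 0.925. *Tubb2b* was higher in cycling Leydig cells, with a geometric mean of the 2 libraries of 4.71, and lower in cycling germ and stromal cells, a difference that was not tested and that rests on 5 and 10 cycling Leydig cells.

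Between the libraries *Tubb2a* had a ratio of 5.97 in germ cells but 0.865 in myoid and 0.868 in stromal cells. *Tubb5* had 0.365 in germ cells and lay above 1 in Leydig, Sertoli and stromal cells, but within classes it was 0.962 in cycling and 0.977 in non-cycling Leydig cells and 0.967 (0.945 to 0.989) in non-cycling Sertoli cells. Cycling cells were 2.84% of Leydig cells in wild type and 6.99% in the knockout-labelled library. *Tuba1c* had 0.124 in germ cells and lay above 1 in Sertoli cells, but it was 0.973 (0.900 to 1.05) in non-cycling Sertoli cells. *Tuba1b* had 1.15 in Sertoli cells and 0.0807 in germ cells. None of these differences was tested, since each genotype is 1 library.

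The 236 wild-type and 175 knockout-labelled cells that passed no gate held 3336 and 3188 CPM of the 10 members together, and were used in no comparison. Their *Tuba1a* was 963 and 706 CPM and their *Tubb5* 1192 and 1363 CPM, while *Tuba3a* had 0 UMIs in both libraries and *Tuba3b* had 1 and 0.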

How the results depend on the processing

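No paired analysis was possible because the columns carry no sample number and the 8 samples of a genotype cannot be told apart. The number of members past 2-fold was within 1.5 times the reported number in 108 of 127 counts under an alternative. In wild-type germ cells the number higher in cycling cells was 1, and 2 with cells of exactly 1 gate, with the mean of single-cell CPM, with all 4 germ markers and without *Amh* cells, 0 after thinning, 4 at 1.5-fold and 3 among cells with more than 2 UMIs of *GFP*. With mitochondrial UMIs of 5% or less it stayed at 1, but the member was *Tubb3*. Calling cells cycling from 1 UMI gave 3 in place of 6 members in Leydig and 2 in place of 5 in Sertoli cells. Between libraries, Sertoli cells had 1 in place of 2 with exactly 1 gate or without doublets and 0 after thinning or with 50 UMIs required. Leydig cells had 1 in place of 0, *Tubb6*, at 5% mitochondrial UMIs, without doublets or with the mean of single-cell CPM. Myoid cells had 2 with overlapping gates and 1 without doublets, and stromal cells 2 with overlapping gates. The cause of these shifts was not tested. Of the 43 somatic cycling ratios past 2-fold, 388 of 389 alternative values kept the direction and 367 stayed past 2-fold, the exception being *Tubb6* in Sertoli cells of the knockout-labelled library, at 0.872 without doublets. Of the germ cell ratios between libraries, those of the 6 members with a UMI in both kept their direction in 66 of 66 and stayed past 2-fold in 59, and *Tubb6*, at the floor, stayed past it in 9 of 11. With CPM outside ribosomal protein and mitochondrial genes, the median log2 cycling ratio of all genes was -0.10 and -0.11 in stromal cells. No value could be had for cycling Leydig cells with exactly 1 gate or without doublets. Of the 3 genes nearest to a member, pseudocounts of 1 and 50 kept 1 and 1 for *Tuba3a*, 1 and 1 for *Tubb3*, 3 and 2 for *Tuba1b*, and 1 and 2 for *Tubb6*. Depth is limited in the 12 knockout-labelled germ cells, with 463254 UMIs in all, and in cycling Leydig cells, with 170830 and 300071.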
